A study of Mus musculus with 23 samples.

Results

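Surfactant is the film of phospholipid and protein that lets the air spaces of the lung expand, and it is made by the alveolar type 2 (AT2) cell. The 10 genes described here encode its proteins and part of the machinery that processes, packages and recycles it. They were chosen by symbol (*Sftpa1*, *Sftpb*, *Sftpc*, *Sftpd*, *Abca3*, *Lamp3*, *Lpcat1*, *Napsa*, *Ctsh* and *Slc34a2*), and all 10 were found in both deposited tables, which list 35455 and 35454 genes. Surfactant proteins A and D (*Sftpa1*, *Sftpd*) are water-soluble collectins that bind microbes in the air space. Surfactant proteins B and C (*Sftpb*, *Sftpc*) are small hydrophobic proteins that spread the lipid film, and both are cut from longer precursors by proteases that include napsin A (*Napsa*) and cathepsin H (*Ctsh*). LPCAT1 remodels the lipid, ABCA3 pumps it into the lamellar body, the storage organelle in which LAMP3 is a membrane protein, and SLC34A2 is a phosphate transporter of the apical membrane.

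RNA was measured in flow sorted tdTomato+ cells from mouse lung tumors, in 23 libraries. In every mouse the *Braf* CAT allele was switched by Cre to express BRAFV600E together with tdTomato, and Cre came from an adenovirus in which the *Sftpc* promoter, that of a gene described here, drives it. Of the first table, 6 libraries carried no other engineered change (BRAFV600E; 1, 3 and 2 libraries at 2, 6 and 12 weeks post-initiation, p.i.), and 8 also expressed PI3KαH1047R from a *Pik3ca* allele switched by the same Cre (BRAFV600E/PI3KαH1047R; 2, 4 and 2 libraries at the same times). In the second table, at 12 weeks p.i., 5 libraries came from mice with 1 conditional null allele of *Ppargc1a*, the gene of PGC1α (BRAFV600E/PGC1αHet), and 4 from mice with both alleles conditional null (BRAFV600E/PGC1αNull). The labels give 5 female and 1 male BRAFV600E libraries, against 3 female and 5 male with PI3KαH1047R, 3 female and 2 male PGC1αHet, and 3 female and 1 male PGC1αNull. The mice were adult, age matched and of mixed background, and those kept for 12 weeks received less virus than those kept for 2 or 6 weeks, so in comparisons of 12 weeks with an earlier time, time and viral dose cannot be told apart. Each library is labelled as a separate sample and is counted as 1 replicate. The paper takes both animals and tumors as independent biological replicates, but the labels do not say that each library came from another mouse. The p-values therefore measure the spread between these libraries.

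The values are normalized counts, which sum to 16433820 to 20287296 in a library of the first table and 7115753 to 9159567 in the second. The tables were normalized separately, so each was tested alone and levels are not compared between them. Differences are given as log2 fold changes, that is differences of mean log2(normalized count + 1), with a standard error (SE) and with Benjamini-Hochberg adjusted p-values from limma over all genes of the table with a mean of at least 10. A gene is called where its adjusted p is under 0.05.

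Upstream sequence is shown for the 4 genes whose promoter entry held letters that known lung regulators prefer, because those regulators are described with their values further on. RefSeq (GRCm38.p6) promoter entries matched 6 of the 10 symbols. The 250 bases before the start of transcription are printed 5′ to 3′ on the strand of the gene, with capitals marking 6 motifs, each searched on both strands. The motif CTCAAG is one form of the letters that NKX2-1 prefers. Another form for the same factor is CAAGTG, which shares the core of the first. For FOXA factors the motif TGTTTAC was searched. A second FOXA form was TGTTTGC. For C/EBP factors the letters were TTGCGCAA. For NR5A2 and the estrogen-related receptors they were AAGGTCA.
Sftpa1 (chr14:41131538-41131787, plus strand): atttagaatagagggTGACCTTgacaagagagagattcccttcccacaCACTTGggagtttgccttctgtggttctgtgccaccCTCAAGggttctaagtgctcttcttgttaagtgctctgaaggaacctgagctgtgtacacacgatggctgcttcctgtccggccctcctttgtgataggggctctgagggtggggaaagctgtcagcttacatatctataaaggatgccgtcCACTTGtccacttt
Sftpb (chr6:72304360-72304609, plus strand): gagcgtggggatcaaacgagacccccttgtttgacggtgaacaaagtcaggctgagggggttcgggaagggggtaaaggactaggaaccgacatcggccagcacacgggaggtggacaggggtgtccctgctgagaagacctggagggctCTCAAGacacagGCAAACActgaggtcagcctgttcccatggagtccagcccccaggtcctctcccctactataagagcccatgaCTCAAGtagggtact
Lamp3 (chr16:19706366-19706615, minus strand): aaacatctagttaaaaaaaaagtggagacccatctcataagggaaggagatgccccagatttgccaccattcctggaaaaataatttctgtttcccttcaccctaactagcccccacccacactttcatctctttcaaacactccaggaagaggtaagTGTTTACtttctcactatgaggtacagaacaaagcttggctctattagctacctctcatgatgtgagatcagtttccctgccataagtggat
Slc34a2 (chr5:53049103-53049352, plus strand): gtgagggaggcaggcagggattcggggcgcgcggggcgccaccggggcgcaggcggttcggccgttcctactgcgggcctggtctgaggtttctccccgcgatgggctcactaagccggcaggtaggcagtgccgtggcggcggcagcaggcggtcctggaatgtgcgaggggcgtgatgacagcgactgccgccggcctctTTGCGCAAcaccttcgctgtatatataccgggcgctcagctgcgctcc
The *Sftpa1* stretch holds CTCAAG 166 bases before the start, CAAGTG on the other strand at 202 and 14 bases, and AAGGTCA on the other strand at 235 bases. The *Sftpb* stretch holds CTCAAG at 100 and 15 bases and, between them, TGTTTGC on the other strand at 88 bases. The RefSeq start of *Slc34a2* lies inside the gene as GENCODE draws it. *Lamp3* has TGTTTAC at 92 bases and *Slc34a2* has TTGCGCAA at 48 bases, while the entries of *Abca3* and *Lpcat1* held none of the 6 motifs. Over all 32851 promoter entries of the same length, 13.3% held CTCAAG, 11.6% CAAGTG, 3.17% TGTTTAC, 4.3% TGTTTGC, 0.164% TTGCGCAA and 4.08% AAGGTCA. A match is a run of letters and not evidence that a factor binds there.

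In GENCODE vM21 (GRCm38), the build the labels name, *Sftpa1* lies at chr14:41131782-41136452 and *Sftpd* at chr14:41172214-41185149, close together on the same chromosome and on opposite strands. *Sftpc* lies farther along that chromosome, at chr14:70520949-70524081. The others are *Sftpb* (chr6:72304610-72314371), *Abca3* (chr17:24351950-24410201), *Lamp3* (chr16:19653378-19706375), *Lpcat1* (chr13:73467197-73516422), *Napsa* (chr7:44572380-44586862), *Ctsh* (chr9:90054152-90076089) and *Slc34a2* (chr5:53038081-53071664).

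Before the results, 3 libraries need naming because they stand apart from the other 11 of the first table. These are both BRAFV600E/PI3KαH1047R libraries at 2 weeks p.i. and library 1 of the same genotype at 6 weeks. The 10 surfactant genes together took 0.622%, 0.314% and 1.14% of all normalized counts in them, against 2.76% to 6.73% in the other 11. Their mean log2 level over 12 endothelial markers was 12.15 to 12.67, against 8.75 to 11.70 in the others, and 9 of the 12 markers were above every other library. Fibroblast markers stood at 11.69 to 12.20 (other libraries 8.43 to 11.13), AT1 markers at 12.50 to 12.99 (10.71 to 12.58), and 10 epithelial reference genes at 7.39 to 7.79 (9.10 to 10.31), with 9 of these 10 below every other library. Summed ciliated markers were also higher in the 3, at 1997 to 2388 normalized counts against 170 to 1471, while their mean log2 level overlapped (4.31 to 5.88 against 3.49 to 5.91). No endothelial marker was listed at 0 in any of the 14 libraries. The part of these other cell markers in the results below was not tested, and in sorted bulk RNA fewer AT2 cells and less surfactant RNA per cell cannot be told apart.

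The sorted cells were checked against AT2 markers other than the genes described. None of the 20 markers was listed at 0 in any of the 23 libraries. Their summed level was 232706 to 575752 normalized counts in BRAFV600E, 54928 to 434149 in BRAFV600E/PI3KαH1047R, 117004 to 159145 in PGC1αHet and 106950 to 141269 in PGC1αNull. AT1 markers were also present in every group, with sums of 42328 to 214206 in the first table and 12630 to 22447 in the second.

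Per kilobase of transcript, *Sftpc* was the most abundant of the 10 in all 23 libraries. Its level in BRAFV600E was 341423 ± 119036 normalized counts per kb (SD, n = 6). *Sftpa1* was next in all 14 libraries of the first table, at 97933 ± 39082 per kb, followed by *Sftpb* (36488 ± 11612) and *Slc34a2* (36376 ± 13116), which exchanged places between libraries. *Ctsh* (19591 ± 7593), *Sftpd* (13609 ± 5103), *Lamp3* (9078 ± 3741) and *Lpcat1* (6663 ± 2514) came next, each within the spread of its neighbor. *Napsa* (2389 ± 893.5) and *Abca3* (2016 ± 716.9) were lowest and did not differ beyond their spread. In the second table *Sftpb* and *Sftpa1* exchanged the places after *Sftpc* between libraries, *Lpcat1* was above *Lamp3* and *Napsa*, and *Abca3* was last in all 9.

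The first question is whether adding PI3KαH1047R to BRAFV600E changed the surfactant genes. With all weeks together the log2 fold change was below 0 for all 10, with a median of -1.01, while the median over all 17558 genes tested was 0.02. The 20 AT2 markers other than these genes had a median of -0.96, with 19 of 20 below 0 and none called. None of the 10 was called (0 of 10; background 0.0228%, 4 genes), and 2 of them, the collectins, had an unadjusted p under 0.05 in the lower direction, which 3.38% of all genes had. Without the 2-week libraries and library 1 of BRAFV600E/PI3KαH1047R at 6 weeks, the median was -0.08 and 7 of 10 estimates were below 0. This set was chosen after the values were seen. The BRAFV600E/PI3KαH1047R libraries left out are the lowest in all 10 genes, so the median had to shrink and nothing is concluded from it. On the scale of the epithelial reference genes, which moved the median of all genes to 0.55, the median of the 10 was -0.48. Over all weeks, all 12 endothelial and all 12 macrophage markers had estimates above 0 (medians 0.88 and 0.93).

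*Sftpa1*, the gene of surfactant protein A, had 229866 normalized counts in the BRAFV600E library at 2 weeks, 331227, 222232 and 138454 at 6 weeks, and 292047 and 463173 at 12 weeks. With PI3KαH1047R it had 30359 and 14612 at 2 weeks, 66008, 190143, 165271 and 122927 at 6 weeks, and 170090 and 234187 at 12 weeks. The ranges overlapped, and 4 of 8 libraries with PI3KαH1047R were below all 6 without. Its log2 fold change over all weeks was -1.53 (SE 0.56, limma adjusted p = 0.595), and exact permutation of the genotypes, two-sided, gave p = 0.0250.

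*Sftpd*, the other collectin, had 14443 normalized counts at 2 weeks, 20579, 14517 and 9122 at 6 weeks, and 17278 and 28170 at 12 weeks in BRAFV600E. The BRAFV600E/PI3KαH1047R libraries held 2350 and 866.4 at 2 weeks, 3081, 13213, 12099 and 10313 at 6 weeks, and 14357 and 17809 at 12 weeks. In each genotype the highest library was one of 12 weeks, and the 3 lowest of all 14 were the libraries that stand apart. The log2 fold change was -1.37 (SE 0.60, limma unadjusted p = 0.0380, not called; exact permutation p = 0.0659).

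*Sftpc*, which encodes the AT2-restricted surfactant protein C, had 197371 normalized counts at 2 weeks, 392700, 237836 and 164859 at 6 weeks, and 251589 and 378088 at 12 weeks in BRAFV600E. With PI3KαH1047R the values were 38864 and 21173, then 82500, 250127, 195707 and 221687, then 256566 and 383005. At 12 weeks the genotypes overlapped, and at 2 weeks the BRAFV600E library was above both others. Over all weeks its log2 fold change was -1.01 (SE 0.57, limma adjusted p = 0.750; exact permutation p = 0.150).

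*Sftpb*, the surfactant protein without which the lipid film cannot form, ranged from 27462 to 81239 (median 53826) in the 6 BRAFV600E libraries and from 2894 to 70041 (median 48017) in the 8 with PI3KαH1047R. Its log2 fold change was -1.08 (SE 0.66, limma adjusted p = 0.756). Both proteases of the precursors overlapped between genotypes: *Ctsh* had 14542 to 51070 (median 32283) against 2102 to 55994 (median 30865), and *Napsa* 1767 to 5493 (median 3689) against 474 to 5337 (median 3464). With PI3KαH1047R the range of *Ctsh* was wider (26.6-fold) than that of *Napsa* (11.3-fold). The log2 fold changes of *Ctsh* and *Napsa* were -1.02 (SE 0.71) and -0.70 (SE 0.55). Of the 10 genes *Napsa* had the smallest estimate.

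Of the lipid handling genes, *Abca3* had 6601 to 18168 normalized counts (median 13240) in BRAFV600E and 1872 to 15604 (median 10563) with PI3KαH1047R. *Lamp3* had 17714 to 48364 (median 28024) against 2936 to 36265 (median 23477), and *Lpcat1* 13816 to 39777 (median 23619) against 3417 to 29184 (median 19146). The phosphate transporter *Slc34a2* had 85159 to 216954 (median 142973) against 8303 to 154694 (median 94050). Their log2 fold changes were -0.82 (SE 0.48), -0.87 (SE 0.51), -0.87 (SE 0.51) and -1.20 (SE 0.59), with exact permutation p-values of 0.157, 0.165, 0.157 and 0.0902. In every one of these genes the ranges overlapped, and exactly the 3 libraries that stand apart were below all BRAFV600E libraries.

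**Figure D1:**
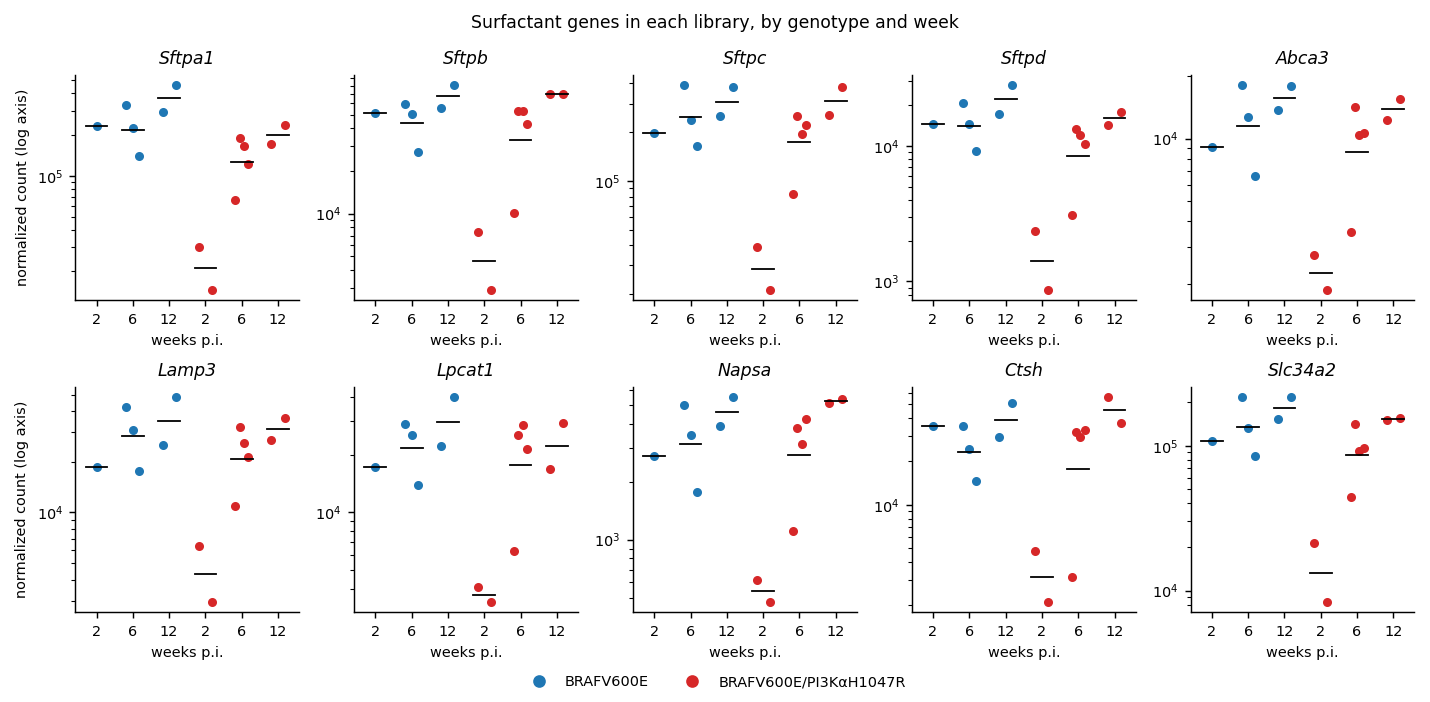
Normalized counts (log axis) of the 10 surfactant genes in the 14 libraries of the first table, against weeks p.i.; points are libraries, colors are genotypes and black lines are geometric means of a group. For every gene the 3 lowest libraries are both BRAFV600E/PI3KαH1047R libraries at 2 weeks and library 1 of that genotype at 6 weeks, and at 12 weeks the genotypes overlap except for *Sftpa1*.

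By week, the difference was largest at 2 weeks p.i. There the median log2 fold change of the 10 genes was -2.90 (all genes 0.01), from -2.01 for *Abca3* to -3.49 for *Ctsh*. All 10 had an unadjusted p under 0.05 in the lower direction (6.57% of all genes did), but none was called (0 of 10; background 0.0171%). *Sftpa1* came nearest, at -3.45 (SE 0.65, limma adjusted p = 0.0763). The comparison rests on 1 BRAFV600E library, female by its label, against 2 male libraries, and assumes that the lone library varies as the other groups do. Without library 1 of BRAFV600E/PI3KαH1047R at 6 weeks, which enters this fit only through the spread, 8 of the 10 were called, and the share over all genes rose as well, to 1.53% (268 genes). On the scale of the epithelial reference genes the median was -1.34. The median of the 20 other AT2 markers was -2.27, with 15 of 20 lower at an unadjusted p under 0.05. All 12 endothelial, all 12 macrophage and all 12 fibroblast markers were above 0 at 2 weeks (medians 2.95, 2.14 and 1.10). The part of these markers in the difference was not tested.

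At 6 weeks, with 3 against 4 libraries, all 10 estimates were again below 0, with a median of -0.43 (all genes 0.00), and none was called (0 of 10; background 0.0228%). Without library 1 of BRAFV600E/PI3KαH1047R the median was -0.06 and 5 of 10 estimates were below 0, and without BRAFV600E library 1 the median was -0.16. No member had an unadjusted p under 0.05, and the exact permutation p of *Sftpa1*, which had the largest difference (-0.78, SE 0.40), was 0.229, where 35 splits allow 0.0286 at the smallest. The 95% interval of *Sftpa1* was -1.65 to 0.10, so a fall as large as that estimated at 2 weeks lay outside it. At 12 weeks 6 of the 10 estimates were below 0 and 4 above, with a median of -0.17 that became 0.16 without BRAFV600E library 2, and none was called (0 of 10; background 0.0114%). *Sftpa1* was the exception in its values: both BRAFV600E/PI3KαH1047R libraries (170090 and 234187) were below both BRAFV600E libraries (292047 and 463173), a log2 fold change of -0.88 (SE 0.53, limma adjusted p = 1). With 2 against 2 libraries such a lower, non-overlapping order was seen in 13.8% of all genes, and the smallest exact p is 0.333. Macrophage markers moved with the groups at 12 weeks, with 12 of 12 above 0 (median 1.04, 2 at an unadjusted p under 0.05, none called) and sums of 7240 and 7343 normalized counts in BRAFV600E against 7807 and 30747, and their part in the differences was not tested.

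**Figure D2:**
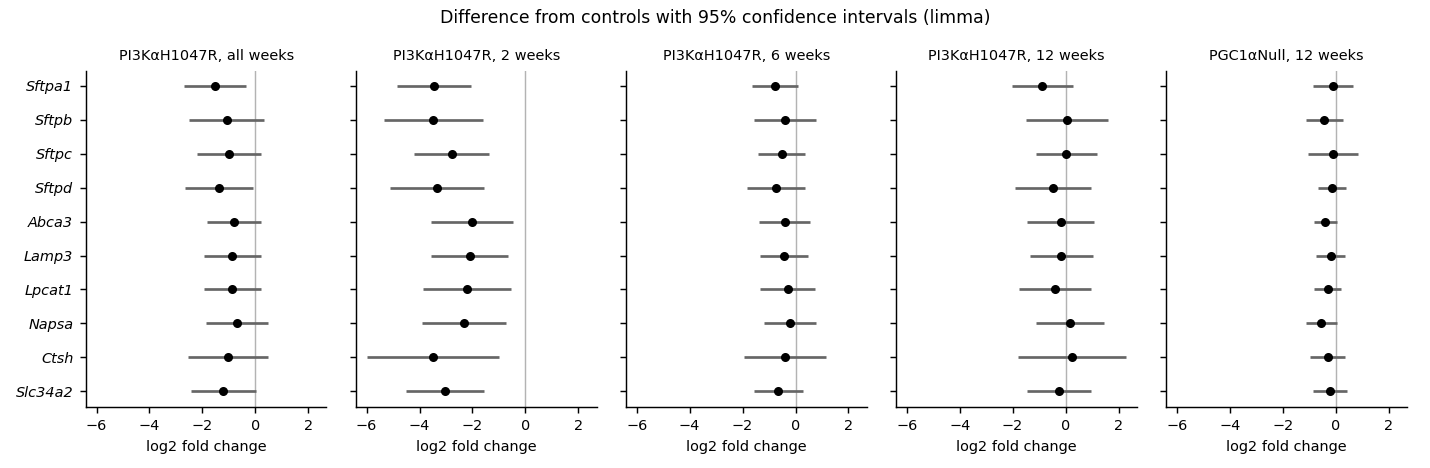
Log2 fold change of each surfactant gene (points) with its 95% confidence interval (lines) from limma, for PI3KαH1047R with all weeks together and at 2, 6 and 12 weeks, and for PGC1αNull. The intervals lie below 0 for all 10 genes at 2 weeks and span 0 for all 10 at 6 and 12 weeks and in PGC1αNull.

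Within BRAFV600E/PI3KαH1047R, all 10 genes were higher at 6 than at 2 weeks, by a median of 2.52 on the log2 scale. All 10 had an unadjusted p under 0.05 in the higher direction (7.72% of all genes did), and none was called (0 of 10; background 0.159%, 28 genes). *Sftpa1* (2.59, SE 0.46), *Sftpc* (2.59, SE 0.46) and *Slc34a2* (2.70, SE 0.48) shared the lowest limma adjusted p, 0.0505. All 10 were called without library 1 at 6 weeks, where 3.97% of all genes were (698 genes). With only genes of a mean of at least 40, 3 were called (background 0.225%), after quantile normalization 2 (background 0.103%), and without BRAFV600E library 3 at 6 weeks 1 (background 0.165%). On the epithelial reference scale the median was 0.94. Of the markers of other cells, all 12 endothelial markers were below 0 for 6 against 2 weeks (median -1.02, 1 at an unadjusted p under 0.05), as were 11 of 12 fibroblast markers (-1.24, 4 at such a p) and 11 of 12 AT1 markers (-1.19, 7 at such a p), and none was called. From 6 to 12 weeks all 10 estimates were above 0 in both genotypes, with medians of 0.84 with PI3KαH1047R (0 of 10 called; background 0.0114%) and 0.50 in BRAFV600E (0 of 10 called; background 0%), and no member reached an unadjusted p under 0.05 in either. On the epithelial reference scale these medians were 0.08 and 0.06. Macrophage markers were above 0 from 6 to 12 weeks in 12 of 12 with PI3KαH1047R (median 1.82, 5 at an unadjusted p under 0.05) and in 9 of 12 in BRAFV600E (1.36, 2 at such a p). Endothelial markers were below 0 in 10 and 12 of 12 (medians -0.96 and -0.87) and fibroblast markers in 11 and 10 of 12 (-0.995 and -0.67), and none of these was called. The part of these markers in the changes over time was not tested.

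How the PI3KαH1047R difference changed between weeks was tested, but at 2 weeks this difference rests on 1 female BRAFV600E library against 2 male libraries. From 2 to 12 weeks it moved upward for all 10 genes, by a median of 2.67, and 8 had an unadjusted p under 0.05 in that direction (4.37% of all genes did). From 2 to 6 weeks the median was 2.32 and 7 genes had such a p (4.28% of all genes). None was called in either test (0 of 10; background 0% in both, limma). *Sftpc* had 2.81 (SE 0.84, limma adjusted p = 0.419) from 2 to 12 weeks. On the epithelial reference scale the medians were 1.02 and 0.98. In both tests 12 of 12 endothelial markers moved downward (medians -3.05 and -2.77), as did 11 of 12 fibroblast markers (medians -1.60 and -0.92). The part of these markers in the change was not tested.

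The 10 genes moved together from library to library. Over the 14 libraries of the first table the Pearson correlation of their log2 values was 0.90 to 0.99 over 45 pairs (lowest *Sftpa1* with *Ctsh*, highest *Sftpc* with *Slc34a2*), and without the 3 libraries that stand apart it was 0.43 to 0.96 (median 0.78, n = 11). In the second table it was 0.27 (*Sftpa1* with *Abca3*) to 0.94 (*Sftpd* with *Lamp3*), with a median of 0.74 over 9 libraries. These are descriptions, since libraries share their scale factor and cell makeup across genes. Among the 17548 other genes of the first table, those most like the mean of the 10 were *Dram1*, a lysosomal membrane protein (r = 0.988), *Wfdc2*, a secreted protease inhibitor (r = 0.987), *Cd74*, the invariant chain of MHC class II (r = 0.985), *Zdhhc3*, a palmitoyltransferase (r = 0.985), and *Ctsc*, cathepsin C (r = 0.982). Without the 3 libraries their r was 0.896 to 0.964. In the second table the nearest were *Tgfa*, an EGFR ligand (r = 0.973), *Acsl4*, a long-chain acyl-CoA synthetase (r = 0.970), *Usp39* (r = 0.968), *Me1*, malic enzyme (r = 0.968), and *Pofut2* (r = 0.966).

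**Figure D3:**
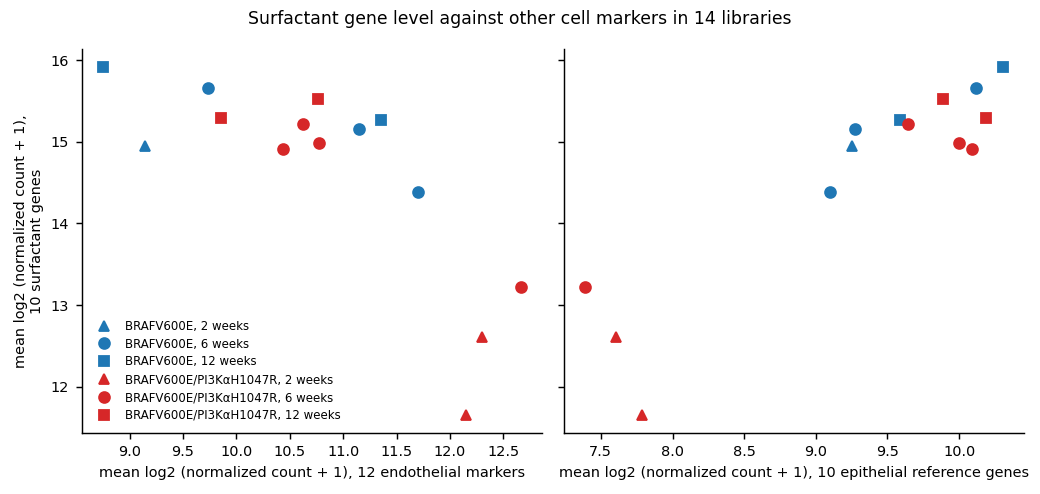
Mean log2(normalized count + 1) of the 10 surfactant genes in each of the 14 libraries against that of 12 endothelial markers (left) and of 10 epithelial reference genes (right); color gives the genotype and shape the week. The 3 BRAFV600E/PI3KαH1047R libraries with a surfactant mean of 11.65 to 13.22 have the highest endothelial means and the lowest epithelial ones.

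Because the genes share so much of their variation, each was also set against the mean of the other 9 in the same library, a difference of log2 values that does not depend on the scale of the library. These comparisons were added after the values had been seen. In all 40 were made, for 10 genes in 4 sets of libraries that share libraries (all weeks, a reduced set, 6 weeks, and PGC1αNull), and 8 of them had an exact p under 0.05. Their p-values are not adjusted. Within a library the relative values balance, so a lower gene forces others higher, and the genes of a set are not separate results. With all weeks together the collectins were lower relative to the others with PI3KαH1047R. *Sftpd* stood at -1.26 at 2 weeks, -1.47, -1.49 and -1.37 at 6 weeks and -1.33 and -1.26 at 12 weeks in BRAFV600E. With PI3KαH1047R it stood at -1.57 and -2.10, then -1.82, -1.70, -1.59 and -1.76, then -1.64 and -1.57. The genotypes did not overlap (-1.36 ± 0.10, SD, n = 6, against -1.72 ± 0.18, n = 8), which 0.0285% of all genes (5 lower, against 31 higher) showed in that direction on the scale of the members' mean. That scale raised the median of all genes by 1.06 with PI3KαH1047R, so it left few genes able to be lower without overlap, and nothing is read from the small share. The difference was -0.36 (two-sided exact permutation p = 0.000333, the smallest that 3003 splits can give, not adjusted).

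*Sftpa1* relative to the other 9 was 2.89 to 3.22 in BRAFV600E and 2.21 to 3.10 with PI3KαH1047R, where library 1 at 6 weeks alone reached into the BRAFV600E range. The difference was -0.54 (exact permutation p = 0.00266). *Napsa* was higher relative to the others, by 0.38 (p = 0.00333, exact), and *Sftpc* differed by 0.04 (p = 0.671, exact). The differences of the remaining 6 had exact p-values of 0.105 to 0.934. In limma, where the spread is shared with all genes and the members' mean was taken as the scale, neither passed the threshold (*Sftpd* -0.32, SE 0.44, adjusted p = 0.535, and *Sftpa1* -0.48, SE 0.35, adjusted p = 0.314). Without the 2-week libraries and library 1 of BRAFV600E/PI3KαH1047R at 6 weeks, 5 against 5 libraries remained. *Sftpd* then differed by -0.27 and *Sftpa1* by -0.60, neither overlapping (0.262% of all genes, 46, were lower without overlap on the members' scale, against 77 higher), each with an exact p of 0.00794, the smallest 252 splits can give. In that set *Ctsh* was higher relative to the others by 0.50 (exact p = 0.0159), *Napsa* by 0.33 (exact p = 0.0238) and *Sftpb* by 0.25 (exact p = 0.0317). Lower collectins force rises in other genes on this measure, so these are not read as findings of their own. At 6 weeks alone, with 4 against 3 libraries, neither collectin had an exact p under 0.05: *Sftpa1* differed by -0.33 with overlap (exact p = 0.2), and *Sftpd* by -0.27 without (exact p = 0.0571, where 0.0286 is the smallest possible). On the members' scale 88 of 17558 genes were lower without overlap at 6 weeks, against 598 higher. That scale put the median of all genes at 0.48, so nothing is read from this share either. In PGC1αNull against PGC1αHet neither collectin was lower, with differences of 0.14 for *Sftpd* (exact p = 0.159) and 0.18 for *Sftpa1* (exact p = 0.191).

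**Figure D4:**
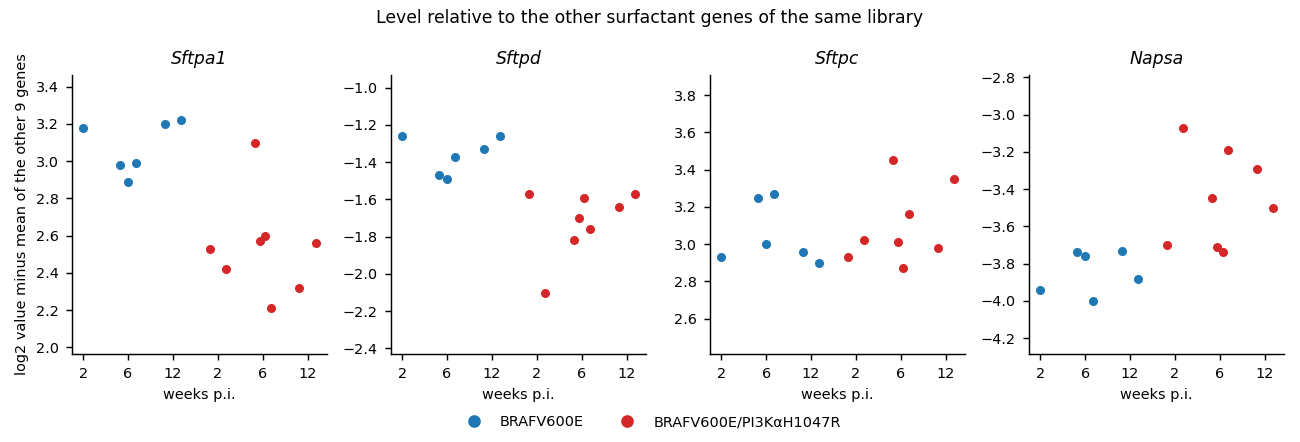
Log2 value of *Sftpa1*, *Sftpd*, *Sftpc* and *Napsa* minus the mean log2 value of the other 9 surfactant genes of the same library, by weeks p.i.; each point is a library and color gives the genotype. All 8 BRAFV600E/PI3KαH1047R libraries lie below all 6 BRAFV600E libraries for *Sftpd*, and 7 of the 8 do for *Sftpa1*.

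The second table asks what loss of PGC1α, a transcriptional coactivator, did to the same genes in BRAFV600E tumors at 12 weeks p.i. The targeted gene *Ppargc1a* had 75.8, 170.2, 155.3, 199.5 and 561.1 normalized counts in PGC1αHet and 72.7, 38.0, 51.6 and 124.0 in PGC1αNull. The groups overlapped, since PGC1αNull library 4 was above PGC1αHet library 1. No values by exon were used here. The log2 fold change was -1.51 (SE 0.50, limma adjusted p = 0.978; exact permutation p = 0.0397).

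All 10 surfactant genes had estimates below 0 in PGC1αNull, with a median of -0.26 (all genes 0.01), and none was called (limma, 0 of 10; background 0%; over all 17424 genes 464 had an unadjusted p under 0.05 in the higher and 203 in the lower direction, and 0 members did). On the epithelial reference scale the median was -0.07 and *Sftpa1*, *Sftpc* and *Sftpd* were above 0. *Abca3*, the lipid pump, had 4886, 5828, 5960, 6440 and 5002 normalized counts in PGC1αHet and 4458, 4019, 4881 and 3788 in PGC1αNull. The highest PGC1αNull library lay just under the lowest PGC1αHet library, an order that 0.459% of all genes showed. Its log2 fold change was -0.39 (SE 0.20, limma adjusted p = 0.998; exact permutation p = 0.0159).

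*Napsa* had 1580, 2991, 3002, 4007 and 2946 normalized counts in PGC1αHet and 2397, 2203, 1683 and 1481 in PGC1αNull, which overlapped (-0.55, SE 0.27, limma adjusted p = 0.998). *Sftpb* was at 70394 ± 16545 (SD, n = 5) against 51720 ± 10416 (n = 4), a log2 fold change of -0.44 (SE 0.32, adjusted p = 0.998). The collectins and *Sftpc* were nearly level: *Sftpa1* stood at 97845 ± 13718 against 92470 ± 26825, *Sftpd* at 14143 ± 2071 against 12991 ± 3358, and *Sftpc* at 304990 ± 22972 against 291579 ± 63591. The 95% interval of the *Sftpc* difference was -1.04 to 0.86 and that of *Sftpd* -0.68 to 0.39. The 9 libraries thus could not tell changes within these bounds, in either direction, from no change. *Lamp3* (-0.19), *Lpcat1* (-0.30), *Ctsh* (-0.31) and *Slc34a2* (-0.22) also overlapped between genotypes.

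The median rested in part on PGC1αNull library 4, the lowest of its group in all 10 genes, and was -0.08 without it, with 8 of 10 below 0. All 12 endothelial markers were higher in PGC1αNull at an unadjusted p under 0.05 (none was called), with sums of 416 to 1281 normalized counts in PGC1αHet and 1738 to 3114 in PGC1αNull. Club cell markers moved with the groups as well, with sums of 2135 to 4099 against 5851 to 22052. Of the fibroblast markers 10 of 11 tested were above 0 (median 1.26, 6 at an unadjusted p under 0.05), and of the macrophage markers 10 of 12 (median 1.22, 5 at such a p). The part of these markers in the differences was not tested.

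**Figure D5:**
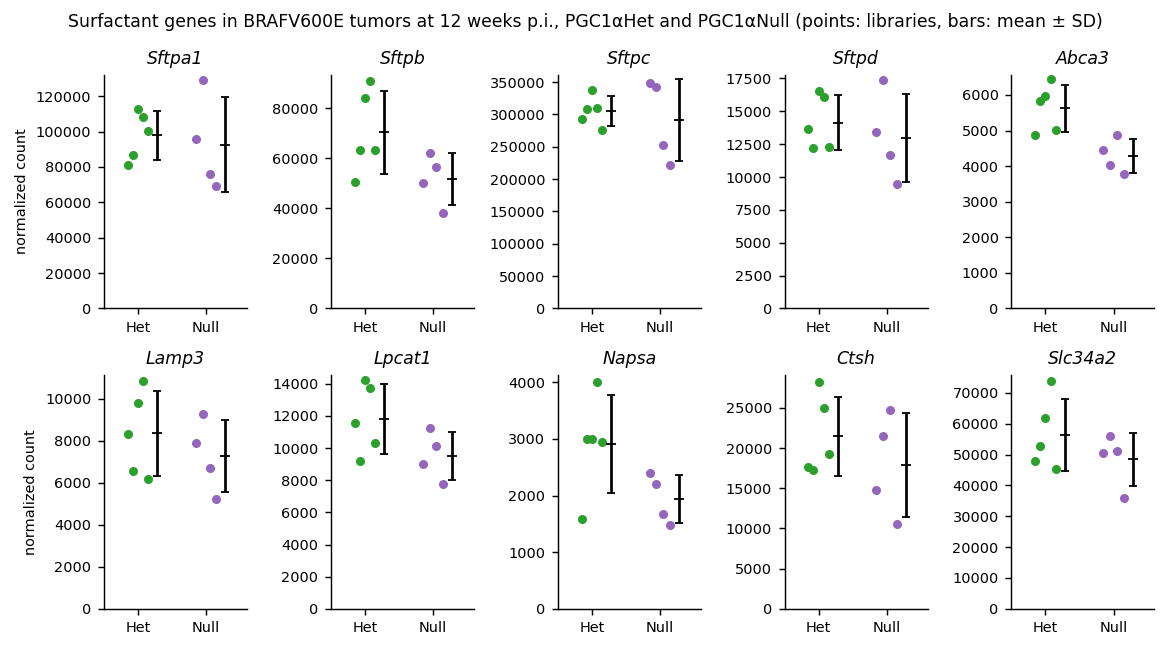
Normalized counts of the 10 surfactant genes at 12 weeks p.i. in the 5 BRAFV600E/PGC1αHet and 4 BRAFV600E/PGC1αNull libraries (points), with the mean and SD of each group (bars); the axes start at 0. The groups overlap for 9 genes, and for *Abca3* the highest PGC1αNull library, at 4881, is just under the lowest PGC1αHet library, at 4886.

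Factors known to drive surfactant genes were taken from a list of 22 regulators. With PI3KαH1047R and all weeks together, 13 of the 22 estimates were below 0 and 9 above (median -0.23), and none was called (limma, 2 with an unadjusted p under 0.05, both lower). *Nkx2-1*, the homeobox factor of lung epithelium, had 3352 to 5330 normalized counts (median 4176) in BRAFV600E and 1964 to 5538 (median 4268) with PI3KαH1047R, a log2 fold change of -0.22 (SE 0.24). Its 3 lowest libraries were those that stand apart, at 2552, 1964 and 2308. *Cebpa*, a C/EBP factor of AT2 cells, had 972.6 to 2311 against 104.9 to 2222 (-1.04, SE 0.56), *Foxa2* 104.5 to 364.6 against 34.1 to 301.5 (-0.84, SE 0.48), and *Foxa1* 111.9 to 776.2 against 152.3 to 608.8 (-0.56, SE 0.41). Leaving out BRAFV600E library 3 at 6 weeks moved *Foxa1* to -0.97, and leaving out BRAFV600E/PI3KαH1047R library 2 at 2 weeks moved *Cebpa* to -0.63. *Etv5*, an ETS factor that maintains AT2 cells, had 1599 to 5245 against 1087 to 4880 (-0.26, SE 0.34).

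*Ppargc1a* itself was at 349.5 to 1088 normalized counts in BRAFV600E and 51.9 to 414.6 with PI3KαH1047R, with 7 of 8 libraries below all 6. Its log2 fold change was -1.92 (SE 0.45, limma adjusted p = 0.225; exact permutation p = 0.00266). *Nr5a2*, a nuclear receptor, was low throughout, at 2.0 to 37.6 against 2.3 to 184.5, and both values over 100 came from BRAFV600E/PI3KαH1047R at 12 weeks (131.6 and 184.5). In PGC1αNull, *Nkx2-1* had a log2 fold change of -0.32 (SE 0.20), *Foxa1* -0.14, *Foxa2* -0.29, *Cebpa* 0.14, *Etv5* -0.01 and *Nr5a2* 0.07. None of the 22 was called there (limma, 13 above 0 and 9 below; 1 in each direction at an unadjusted p under 0.05).

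Of 28 genes of phospholipid and fatty acid synthesis, 13 estimates were above 0 and 15 below with PI3KαH1047R (median -0.08), and none was called (limma, 1 in each direction at an unadjusted p under 0.05). The lowest were *Acsl4* (-0.99, SE 0.47), *Fabp5*, a fatty acid binding protein (-0.95, SE 0.33), and *Fasn*, fatty acid synthase (-0.69, SE 0.37), and the highest *Agpat2* (0.59, SE 0.26), *Lpin3* (0.49, SE 0.49) and *Plin2*, a lipid droplet protein (0.47, SE 0.27). In PGC1αNull 21 of the 28 were below 0 and none was called or had an unadjusted p under 0.05. There *Lpin3* (-0.52), *Lpin2* (-0.52) and *Agpat2* (-0.47) were lowest, and *Elovl6*, a fatty acid elongase (1.05, SE 0.67), *Dgat2*, a triglyceride synthase (1.03, SE 0.49), and *Chkb* (0.14) highest. The value of *Elovl6* rested on PGC1αNull library 1, at 313.1 normalized counts against 24.3 to 43.8 in the other 3 and at most 36.7 in PGC1αHet, and was 0.22 (SE 0.49) without it.

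Of 34 further genes of the lamellar body and of surfactant turnover, 22 were below 0 with PI3KαH1047R and 12 above (median -0.09), and none was called (limma, 1 lower at an unadjusted p under 0.05). *Pla2g1b*, a secreted phospholipase A2, was lowest at -1.94 (SE 0.66, adjusted p = 0.522), followed by *Ctsc* (-1.06, SE 0.64) and *Npc2*, a lysosomal cholesterol carrier (-0.71, SE 0.55). *Lpcat2* (0.59), *Hps1* (0.55) and *Hps6* (0.48) were highest, all 3 at low counts. At 2 weeks *Pla2g1b* had 203.4 normalized counts in the only BRAFV600E library and 14.5 and 11.8 in the others (log2 fold change -3.86, SE 0.52, limma adjusted p = 0.0426). That call was lost with a pseudocount of 4, quantile normalization, the epithelial reference scale or sex as a factor, and held in 3 of 13 fits with 1 library left out (adjusted p over all these alternatives 0.00417 to 0.422). *Pla2g1b* and *Ctsc* rose from 2 to 6 weeks in BRAFV600E/PI3KαH1047R, by 3.22 (SE 0.37, adjusted p = 0.00437) and 3.05 (SE 0.50, adjusted p = 0.0379). With 1 library left out the call of *Pla2g1b* held in 13 of 14 fits (not without BRAFV600E/PI3KαH1047R library 1 at 2 weeks, adjusted p = 0.0730) and that of *Ctsc* in 3 of 14 (adjusted p up to 0.173). Both calls were lost on the epithelial reference scale, and that of *Ctsc* also with no filter on low values (adjusted p = 0.0856), quantile normalization (0.0508) and sex as a factor (0.127), so that it held in 2 of 6 other settings. In PGC1αNull 24 of the 34 were below 0 and none was called (limma, 1 lower and 2 higher at an unadjusted p under 0.05). *Pla2g1b* (-0.62), *Rab38*, a lamellar body Rab protein (-0.58), and *Hps1* (-0.54) were lowest there, and *Pla2g15*, a lysosomal phospholipase (1.00, SE 0.45), *Lipa* (0.69, SE 0.31) and *Hps6* (0.39) highest.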

How the data were processed

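The authors made libraries from sorted tdTomato+ tumor cells with a low-input kit (Nugen Ovation Ultralow V2) and sequenced 50 bases from 1 end. The deposited signal values are the authors' normalized counts: per gene Salmon estimates, normalized by DESeq2 in Galaxy with default settings, 1 table for each comparison. Per the labels the build was GRCm38 and FastQC, Salmon and DESeq2 were used. Salmon estimates need not be whole and reads were not recovered from them, so depth in reads is unknown, no count test was run and precision comes from the spread between libraries. The authors' own comparison tables hold DESeq2 base means, fold changes and p-values and were not used.

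Values were tested as log2(normalized count + 1) with limma 3.58.1 in R 4.3.3 (trend, two-sided), for genes with a mean of at least 10. A genotype effect was fitted to all weeks together, as in the study, and a mean for each genotype and week to compare weeks. Single values were also tested by exact permutation of the genotype labels over libraries (numpy 2.4.6, pandas 2.3.3, Python 3.11.15). limma was checked on simulated data with known changes. Levels per kb use the length of the principal GENCODE vM21 transcript. Promoter entries are from RefSeq.

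The genes, lists and tests were chosen with earlier results of these data known. Named were the 10 genes, 7 regulators (*Ppargc1a* among them), the 3 highest and 3 lowest estimates of the lipid and lamellar body lists in the comparison over all weeks and in PGC1αNull, and in each table the 5 genes most like the mean of the 10. *Pla2g1b* and *Ctsc* by week, *Nr5a2* at 12 weeks and the levels relative to the other members were singled out after their values were seen. Lists of AT2, AT1, club, ciliated, endothelial, macrophage, lymphocyte, fibroblast and erythroid markers were summed. The sums of ciliated (170 to 2388), macrophage (1570 to 30747), lymphocyte (646 to 2291) and erythroid (315 to 3926) markers overlapped between genotypes over all weeks in the first table. All 6 erythroid markers tested were still below 0 with PI3KαH1047R over all weeks (median -0.93, limma, 2 at an unadjusted p under 0.05, 0 called). The same 6 were below 0 at 6 and 12 weeks (medians -0.83 and -1.44), and their part in the results was not tested. Alternatives were a pseudocount of 4, a mean of at least 40, no filter, quantile normalization, the mean of 10 epithelial reference genes as the scale, sex or week as a factor, a replicate block and leaving out each library. At 12 weeks the Y-linked *Kdm5d* had 501.6 normalized counts in the BRAFV600E/PI3KαH1047R library labelled male and 4728 in that labelled female, so the fit with sex as a factor uses labels that these values go against.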

Additional observations from a re-analysis of the deposited data

Results flagged for a closer look

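Among 33 groups of 4 or 5 libraries (11 genes in 3 groups), 2 held a library far from the others of its group by Dixon's criterion, which chance alone flags in about 1 of 20. *Ctsh* had 3122 normalized counts in BRAFV600E/PI3KαH1047R library 1 at 6 weeks p.i., where the nearest library of the group had 29514. The other 9 surfactant genes were lowest in that library too, without passing the criterion. *Ppargc1a* had 561.1 normalized counts in PGC1αHet library 5, where the nearest had 199.5. That library's surfactant genes lay within the range of the other PGC1αHet libraries or next to it, with *Abca3* at 5002 and *Sftpc* at 275804.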

How the results depend on the processing

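Under 200 alternative medians of the 10 genes, 6 moved by more than the spread between replicates, and of 830 alternative estimates of single genes 30 had the other sign. On the epithelial reference scale the median became -1.34 at 2 weeks (from -2.90), 0.94 for 6 against 2 weeks (from 2.52), 0.0795 for 12 against 6 weeks in BRAFV600E/PI3KαH1047R (from 0.84), 1.02 for the change of the PI3KαH1047R difference from 2 to 12 weeks (from 2.67) and 0.98 for that from 2 to 6 weeks (from 2.32). The median over all weeks became -0.0759 (from -1.01) without the 2-week libraries and library 1 of BRAFV600E/PI3KαH1047R at 6 weeks, an alternative added after seeing the data, and was -0.36 without the 2-week libraries alone. The added alternative leaves out the BRAFV600E/PI3KαH1047R libraries that are lowest in the 10 genes, so it had to shrink the median. The number of the 10 genes called for 6 against 2 weeks was 0 (28 of all genes), but 3 with a mean of at least 40 (32 of all genes) and 2 with quantile normalization (18 of all genes), and 0 to 10 with each library left out in turn (10 without BRAFV600E/PI3KαH1047R library 1 at 6 weeks, where 698 of all genes were called, and 1 without BRAFV600E library 3 at 6 weeks, where 29 were). At 2 weeks that number was 0 to 8 with each library left out (268 of all genes called where it was 8). Of 43 estimates given for genes outside the 10 (*Pla2g1b* and *Ctsc* by week aside), 27 moved by over 1.5 times with some library left out, and none was called in any of these fits. The median at 12 weeks ran from -0.44 to 0.16 in the same way. Replicate numbers did not pair the libraries (correlations of deviations -0.467 to 0.211). A replicate block gave medians of -1.18 over all weeks, -0.58 at 6 weeks and -0.32 in PGC1αNull. It called 0 of the 10 genes (of all genes 3, 0 and 0 were called). A crossed replicate block at 12 weeks, added after seeing the data, called 0 of the 10 (3 of all genes). The depth in reads is unknown, and 1 or 2 libraries a group at 2 and 12 weeks limit what could be detected.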

Other observations

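The ratio of *Sftpa1* to *Sftpc* normalized counts was 0.840 to 1.23 in the 6 BRAFV600E libraries and 0.555 to 0.845 in the 8 BRAFV600E/PI3KαH1047R libraries, a ratio within a library that its scale does not touch. In the separately normalized second table it was 0.274 to 0.377 over 9 libraries. *Nr5a2* had a log2 fold change of 3.86 (SE 1.40, limma adjusted p = 1) with PI3KαH1047R at 12 weeks p.i., from 37.6 and 2.0 to 131.6 and 184.5 normalized counts, and was chosen after its values were seen. Without BRAFV600E library 2 the *Nr5a2* value was 2.02. *Foxa2* and *Cebpa* stood at -2.17 (SE 0.67, limma adjusted p = 0.196) and -2.96 (SE 0.89, limma adjusted p = 0.183) at 2 weeks, and at 0.52 and 0.20 at 12 weeks. Without BRAFV600E/PI3KαH1047R library 2 at 2 weeks *Cebpa* stood at -1.89 at that time, and at 12 weeks both genes changed sign with 1 BRAFV600E library left out (*Foxa2* -0.38 and *Cebpa* -0.08 without library 1).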
